A study of Mus musculus with 2 samples.

Results

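The pigment epithelium genes described here are 10 genes with roles in the uptake of photoreceptor outer segments or in epithelial transport. They are Mertk, Gas6, Mfge8, Itgb5, Itgav, Best1, Aqp1, Slc16a8, Kcnj13 and Ezr, out of 18193 genes with a probe set of their own on the array. They were read by 20 probe sets, every one that carried a member's symbol alone in the platform annotation, and no probe set shared a member's symbol with another gene. A probe set is a group of short array probes, placed mostly near the 3′ end of a transcript, that yields 1 intensity. Total RNA of mouse eye cups at postnatal day 13 was hybridised to Affymetrix mouse expression arrays, with 1 array of RNA from Mfsd2a KO mice and 1 of RNA from wild-type mice. An eye cup holds the retina, pigment epithelium, choroid and sclera, left after the front of the eye and the optic nerve are taken off. Per the sample labels each array held RNA of 6 animals, whereas the series' design text counts 6 eye cups. The labels give neither the part of Mfsd2a that is deleted nor the strain or the sexes pooled.

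The retinal pigment epithelium is a single layer of pigmented cells behind the photoreceptors. Each day it engulfs the shed tips of outer segments: the integrin αvβ5 binds the tips through the bridging protein Mfge8, and the receptor tyrosine kinase Mertk, bound by Gas6 or protein S, sets off their ingestion. The layer also moves water, ions and lactate away from the retina toward the choroid, and its ezrin-bearing apical microvilli wrap the outer segments. Mfsd2a is a transporter of lysophosphatidylcholine that carries docosahexaenoic acid, a major fatty acid of outer segment membranes.

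Each value is 1 intensity on a linear scale with no replicate, so there is no spread between samples and no p-value. Differences are log2 intensity of the array labelled Mfsd2a KO minus that of the wild-type array. A gene or probe set counted as measured when its higher value reached a floor, the array's median (93.4 on the array labelled Mfsd2a KO and 94.2 on the wild-type array), which 9 of the 10 members and 14 of their 20 probe sets did. The one error that could be computed is technical. Where a gene had at least 2 probe sets above the floor, their differences had a pooled SD of 0.0886 (5201 genes). Mfsd2a itself read 244 on the array labelled Mfsd2a KO and 181 on the wild-type array, which goes against the label unless its probe set lies outside the deletion. Where it lies was not analysed here, and every direction below rests on the label. Sex-linked transcripts differed between the pools too, with Xist at 4357 on the array labelled Mfsd2a KO and 7055 on the wild-type array, and Uty at 157 and 78.2. With 1 pool per genotype, an effect of genotype cannot be told apart from one of the sexes pooled, the dissection or the handling of an array.

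Aqp1 and Kcnj13, both epithelial channels, were the 2 members whose intensity was lower by 1.2-fold or more on the array labelled Mfsd2a KO, and 0 members were higher by that size. Across all 11568 measured genes, 1.17% were lower and 1.79% higher by 1.2-fold or more. The median difference of the 9 measured members was -0.10, beside 0.01 over all measured genes, with 6 of the 9 below 0 and 3 above it, where 42.4% of all measured genes were below 0 and 55.8% above. By probe set the picture was less one-sided: 6 of the 14 above the floor were below 0 (42.1% of all 20105 single-symbol probe sets above the floor) and 8 above it, with a median of 0.02 in the members and 0.02 in all. By 1.2-fold or more, 2 member probe sets were lower (1.15% of all) and 0 higher (1.85% of all). At 1.5-fold, 0 member genes were lower (0.0864% of all genes) and 0 higher (0.138%), and likewise 0 member probe sets lower (0.0945% of all) and 0 higher (0.124%). The smaller size of 1.1-fold took in Mertk as well, for 3 genes lower (6.60% of all genes) and 0 higher (9.80%), and 3 probe sets lower (6.98% of all) and 2 higher (11.0%), which were 1 each of Itgb5 and Ezr. By brightest probe set, the measured channels and transporters lay from -0.36 to -0.10, Mertk and Gas6 from -0.15 to -0.10, the integrin subunits with Mfge8 from 0.01 to 0.06, and Ezr at -0.05. These ranges depend on the probe set and the scaling. Averaged over all probe sets of each gene, Slc16a8 was 0.02, Gas6 -0.01 and Ezr 0.08, and the median of the members was 0.024, above 0. Itgav was -0.01 with the trend on intensity removed. In eye cup RNA, fewer pigment epithelial cells and less RNA per cell cannot be told apart.

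**Figure D1:**
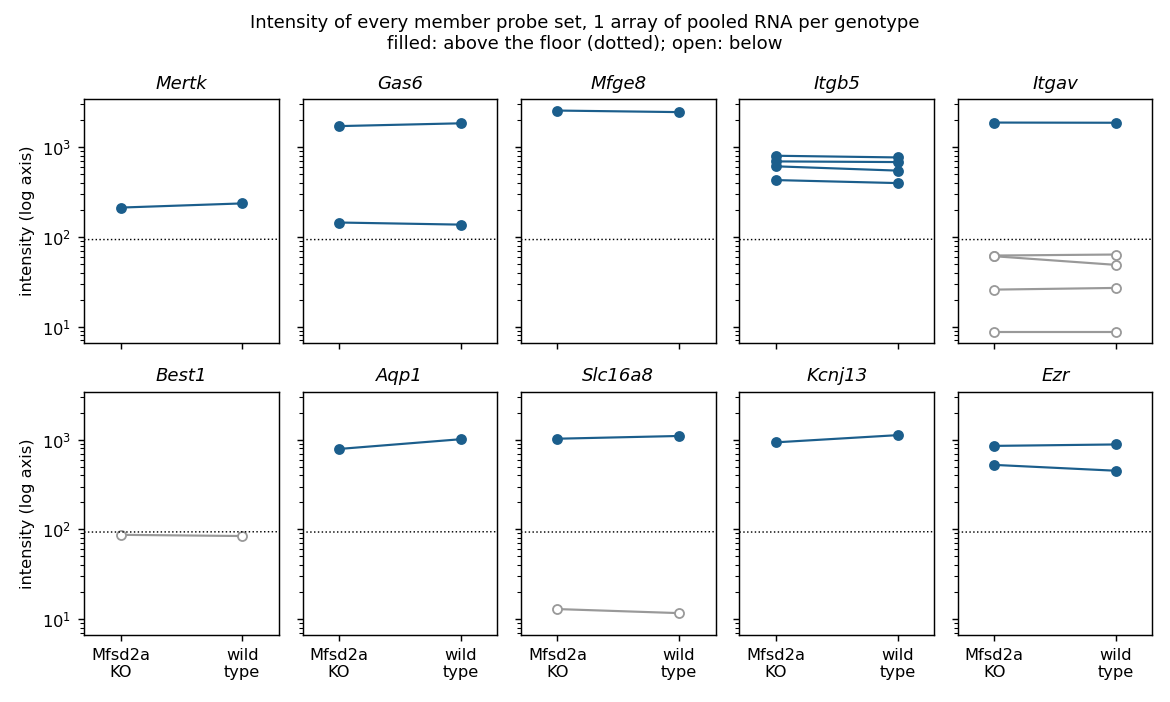
Intensity (log axis) of all 20 probe sets of the 10 members on the array labelled Mfsd2a KO (left) and the wild-type array (right), joined by a line per probe set, with no error bars because each genotype is 1 array. Filled points lie above the floor (dotted line) and open points below it. The steepest slopes above the floor are those of Aqp1 (789 and 1013) and Kcnj13 (935 and 1124), and the single Best1 probe set lies under the floor on both arrays.

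Aqp1 encodes aquaporin 1, a water channel of epithelia that is also made by red blood cells, some endothelia and the ciliary epithelium. Its single probe set read 789 on the array labelled Mfsd2a KO and 1013 on the wild-type array, so that it was 22.1% lower with the KO label. The log2 difference was -0.36, which is 4.07 times the technical SD. Only 45 of the 11568 measured genes (0.389%) were as low. Among the 500 measured genes nearest to it in mean intensity the central 95% lay between -0.15 and 0.21, and Aqp1 lay below that interval. Of the 7 genes in the erythroid list 4 were matched to a probe set of their own, and only Alas2, an enzyme of heme synthesis, passed the floor (124 on the array labelled Mfsd2a KO and 147 on the wild-type array, difference -0.24), while the alpha globin Hba-a1 read 19.1 and 20.1 and Slc4a1, the red cell anion exchanger, 40.9 and 46.6. Their part in the Aqp1 difference was not tested.

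Kcnj13 encodes an inwardly rectifying potassium channel of the apical membrane of the pigment epithelium. Its single probe set read 935 on the array labelled Mfsd2a KO and 1124 on the wild-type array, 16.8% lower with the KO label. The difference of -0.27 lies only just past the 1.2-fold line of -0.26 and is 3.0 times the technical SD. As low were 128 measured genes (1.11%), and the central 95% of the 500 genes of like intensity ran from -0.15 to 0.15. Kcnj13 lies within the span of another gene, Gigyf2, in the RefSeq table. Gigyf2 had 4 probe sets of its own, the brightest at 588 on the array labelled Mfsd2a KO and 633 on the wild-type array (-0.11), and whether any of its signal enters the Kcnj13 probe set was not tested.

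The promoters of Kcnj13 and Aqp1, the members with the largest differences, are shown with that of Best1, the classic pigment epithelium promoter, to set side by side the sequence near the start sites of the channel genes. They are RefSeq sequences of build GRCm38.p6, 250 bases before to 50 after the annotated start, 5′ to 3′ on the strand of the gene. Capitals mark the letters searched on both strands: CACGTG (E-box), CATGTG or CACATG (M-box core, a binding motif of the pigment cell factor MITF), TAATCC or GGATTA (core of the OTX2 motif) and TATAAA or TTTATA (the TATA box). The windows are chr1:87394680-87394979, minus strand, chr6:55336049-55336348, plus strand, and chr19:10001584-10001883, minus strand.
Kcnj13: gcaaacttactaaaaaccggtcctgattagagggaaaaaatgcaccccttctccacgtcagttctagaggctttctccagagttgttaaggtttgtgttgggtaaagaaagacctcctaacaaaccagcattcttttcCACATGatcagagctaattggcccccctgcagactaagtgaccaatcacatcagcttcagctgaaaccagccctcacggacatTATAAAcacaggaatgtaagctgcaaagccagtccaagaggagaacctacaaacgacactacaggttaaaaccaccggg
Aqp1: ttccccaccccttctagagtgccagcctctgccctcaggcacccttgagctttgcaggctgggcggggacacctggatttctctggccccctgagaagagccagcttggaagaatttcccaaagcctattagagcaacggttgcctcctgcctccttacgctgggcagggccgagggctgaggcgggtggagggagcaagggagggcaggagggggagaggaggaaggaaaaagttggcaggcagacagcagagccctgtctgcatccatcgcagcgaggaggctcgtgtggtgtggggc
Best1: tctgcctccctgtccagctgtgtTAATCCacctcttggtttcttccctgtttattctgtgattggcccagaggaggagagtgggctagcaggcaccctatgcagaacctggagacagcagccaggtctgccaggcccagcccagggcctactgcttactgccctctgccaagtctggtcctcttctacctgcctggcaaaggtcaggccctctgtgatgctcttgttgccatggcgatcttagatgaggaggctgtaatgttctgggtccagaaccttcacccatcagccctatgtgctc
The Kcnj13 window holds an M-box core 112 bases and a TATA match 29 bases before the start, and the Best1 window an OTX core 227 bases before it. The Aqp1 window holds none of these letters, nor do those of the other 7 members. Of all 32851 promoter windows of this length, 7.15% hold an E-box, 14.2% an M-box core, 7.06% an OTX core, 13.6% a TATA match and 35.9% any of them. No match overlapped another in these windows. Kcnj13 also had the lowest GC content of the members, 46.0%, against 56.3% to 68.0% in the other 9 and a median of 52.7% over all windows. These matches describe the letters and were not tested as sites.

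Slc16a8 encodes MCT3, the lactate carrier of the basolateral pigment epithelium. Its bright probe set read 1026 on the array labelled Mfsd2a KO and 1101 on the wild-type array, a difference of -0.10 that is 1.14 times the technical SD and inside the range of genes of like intensity (-0.15 to 0.14). A further probe set, far under the floor at 12.9 and 11.6, differed by 0.15, and its value carries little weight at that intensity. Best1, the calcium-activated chloride channel mutated in Best disease, was not measured: its single probe set read 87.0 on the array labelled Mfsd2a KO and 84.3 on the wild-type array, under the floor on both. Its difference was 0.04. RMA, the method named for the deposited values, compresses differences of dim probe sets.

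Mertk and Gas6, the receptor and ligand that trigger ingestion, were both a little lower by their brightest probe set. Mertk read 212 on the array labelled Mfsd2a KO and 236 on the wild-type array, 10.1% lower with the KO label. Its difference of -0.15 is 1.74 times the technical SD, and 5.25% of measured genes were as low. Mertk is also made by macrophages, so its single probe set reads more than pigment epithelium. The bright Gas6 probe set read 1722 on the array labelled Mfsd2a KO and 1850 on the wild-type array (-0.10), whereas its dimmer one, also above the floor, read 145 and 137 (0.08). The 2 Gas6 sets thus lay on opposite sides of 0, 0.18 apart, and their mean was -0.01. Probe sets of both signs are common: 45.5% of the 5201 genes with at least 2 sets above the floor had them.

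The integrin arm of uptake was level or slightly higher. Itgb5, the beta subunit of αvβ5, had 4 probe sets above the floor, all above 0. They read 804, 695, 613 and 431 on the array labelled Mfsd2a KO, and 770, 684, 549 and 399 on the wild-type array. Their differences were 0.06, 0.02, 0.16 and 0.11 in that order, and none reached 1.2-fold. The sets reading 695 and 431 with the KO label have names ending in _x_at, which marks probes that may bind other transcripts. All 4 sets read the same RNA, so their shared sign is not replication. Mfge8, the bridging ligand, read 2566 on the array labelled Mfsd2a KO and 2466 on the wild-type array (0.06), 0.648 times the technical SD. The bright probe set of Itgav, the alpha v subunit that pairs with several beta subunits in many cell types, read 1886 on the array labelled Mfsd2a KO and 1877 on the wild-type array. Its difference of 0.01 turned to -0.01 when the median of all genes or a trend on intensity was removed. The remaining 4 Itgav sets lay under the floor at 8.73 to 63.6 on either array. Of these, 1 differed by 0.32 (60.9 on the array labelled Mfsd2a KO and 48.8 on the wild-type array) and the others by -0.06 to 0.00.

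Ezr encodes ezrin, which ties the membrane of apical microvilli to the actin cytoskeleton. Its 2 probe sets, both above the floor, gave unlike values. The brighter read 854 on the array labelled Mfsd2a KO and 886 on the wild-type array (-0.05), and the other read 524 and 451 (0.22). The brighter set has a name ending in _x_at, which marks probes that may also bind other transcripts, so without such sets the Ezr value is 0.22 in place of -0.05. The gap between the 2 sets, 0.27, is larger than the difference of either from 0, and the data give no single direction for Ezr.

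**Figure D2:**
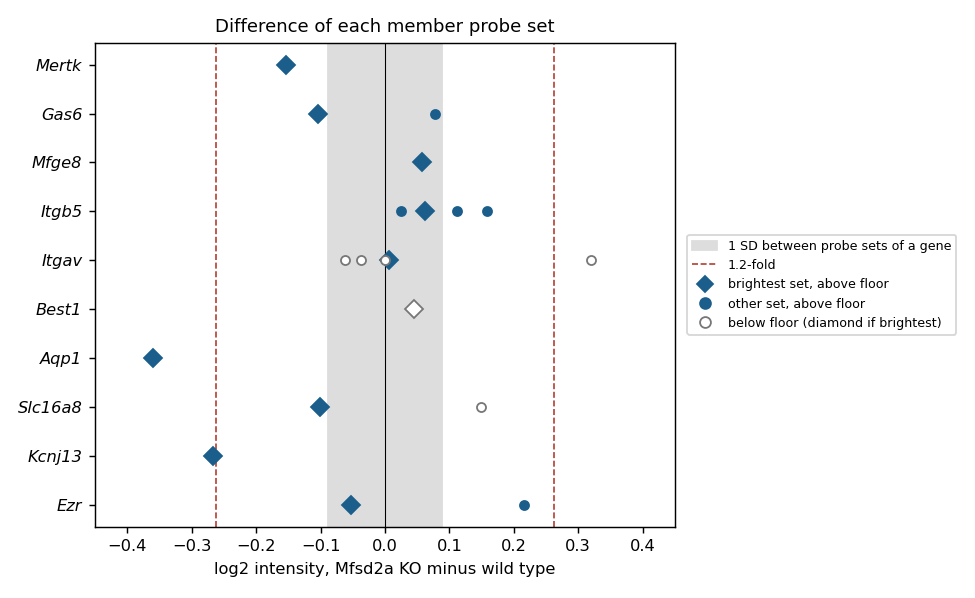
Log2 difference (Mfsd2a KO minus wild type) of each member probe set, 1 row per gene. Diamonds are the brightest set of a gene, circles the others, filled where above the floor; the grey band is 1 technical SD (0.0886) to either side of 0 and the dashed lines are 1.2-fold. Aqp1 (-0.36) and Kcnj13 (-0.27) lie past the lower line, the 4 Itgb5 sets lie right of 0, and the sets of Gas6 and Ezr straddle it.

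**Figure D3:**
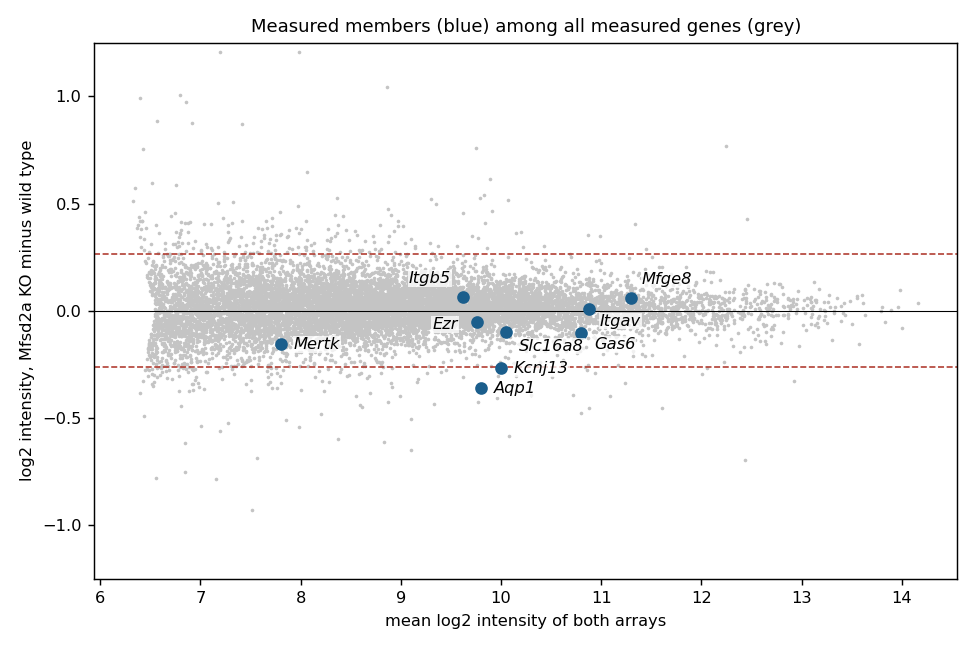
Log2 difference (Mfsd2a KO minus wild type) against mean log2 intensity of both arrays for the 11568 measured genes (grey) and the 9 measured members (blue), 1 point per gene from its brightest probe set, with dashed lines at 1.2-fold. Aqp1 (-0.36) and Kcnj13 (-0.27) sit at the lower edge of the cloud at their intensity, and the other 7 members lie within it.

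Other genes of the same functions were read from lists written for this purpose. Over all measured genes, 42.4% were below 0 and 55.8% above, and 1.17% were lower and 1.79% higher by 1.2-fold or more. Of 24 genes of outer segment uptake and digestion, 22 were measured, 10 of them below and 11 above 0, with a median of 0.00. By 1.2-fold or more, 1 was lower and 1 higher. The lower one was Tyro3, a receptor kinase of the Mertk family, at 107 on the array labelled Mfsd2a KO and 136 on the wild-type array (-0.34). Its other probe set, under the floor, differed by -0.01. Axl, the third kinase of the family, had the same value of 261 on both arrays, and Pros1, which encodes protein S, differed by -0.05. The higher one was Ctss, a lysosomal protease that microglia and macrophages make in quantity, at 1286 on the array labelled Mfsd2a KO and 1002 on the wild-type array (0.36). Dock1, which activates Rac1 during engulfment, differed by -0.10, Rubcn, of phagocytosis assisted by the autophagy protein LC3, by 0.10, and Tub, a proposed Mertk ligand, by 0.08.

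Among 24 further genes of epithelial transport, 17 were measured, 11 below and 5 above 0, with a median of -0.02, and 0 reached 1.2-fold in either direction. Slc16a1, the lactate carrier MCT1, read 4410 on the array labelled Mfsd2a KO and 5207 on the wild-type array (-0.24). Bsg, the chaperone basigin that takes MCT1 and MCT3 to the membrane, read 5648 and 6198 (-0.13). Both Slc16a1 and Bsg are also made by photoreceptors, glia and endothelium. Atp1b1, a subunit of the sodium pump, differed by -0.12, the calcium-activated chloride channel Ano1 by -0.10 and the anion exchanger Slc4a2 by -0.10. The chloride channel Clcn2 (0.09) and the bicarbonate cotransporter Slc4a4 (0.03) were on the other side. Slc4a4 probe sets above the floor ran from -0.07 to 0.03.

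Of 16 genes of the apical membrane and ezrin's partners, 13 were measured, 5 below and 8 above 0, with a median of 0.04 and 0 past 1.2-fold. Averaged over all probe sets of each gene, the median was -0.01. The ezrin relatives radixin (Rdx, 0.07) and moesin (Msn, -0.02) and the scaffolds that bind ezrin, Slc9a3r1 (-0.05) and Slc9a3r2 (0.07), lay close to 0. Nf2, which encodes the related protein merlin, differed by 0.10, and Itgb1, an integrin beta subunit that also pairs with alpha v, by -0.13. Probe sets above the floor lay on both sides of 0 for Nf2 (-0.10 to 0.15), Itgb1 (-0.13 to 0.09), Slc9a3r2 (-0.13 to 0.07) and Msn (-0.02 to 0.14).

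Markers of the pigment epithelium are given beside the members. The list is not specific to this layer, as Rlbp1 also stands in the list of Mueller glia. Of 16 identity genes 14 were measured, 11 of them below 0 and 3 above it. Over all measured genes, 42.4% were below 0 and 55.8% above. The median of the identity genes was -0.09, beside 0.01 over all measured genes. The technical SD is that of single probe sets and gives no error for a list median. The 3 above 0 were the transcription factor Otx2 (0.14), the keratin Krt18 (0.12) and the thyroxine carrier Ttr (0.02). Ttr probe sets above the floor ran from -0.07 to 0.02. Lower by 1.2-fold or more were 3, beside 1.17% of all measured genes. The 3 were Rdh5 (2154 on the array labelled Mfsd2a KO and 2722 on the wild-type array, -0.34), Lrat (1308 and 1621, -0.31) and Rgr (3714 and 4561, -0.30), all of the retinoid cycle. Rpe65, the isomerase that defines the cell type, read 3301 on the array labelled Mfsd2a KO and 3484 on the wild-type array (-0.08), Rlbp1 differed by -0.03 and the melanosome enzyme Tyrp1 by -0.21. By brightest probe set, all 8 measured of 9 pigment cell genes were below 0 (median -0.14). Among them were Tyr (-0.11), Dct (-0.15) and Mlana (-0.28, the 1 past 1.2-fold). Tyr probe sets above the floor ran from -0.11 to 0.04. The summed intensity of the 8 genes was 10297 on the array labelled Mfsd2a KO and 11447 on the wild-type array. The share of pigmented cells in each pool was not measured.

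Markers of other cell types differed between the arrays too, among them cells that make some of the members. Markers of microglia and macrophages, which make Mertk and Ctss, were mostly above 0. Of 12, 7 were measured, 6 of these above 0 and 1, Lyve1 (-0.02), below it. The median was 0.37, with a summed intensity of 2937 on the array labelled Mfsd2a KO and 2565 on the wild-type array. Higher by 1.2-fold or more were 5, beside 1.79% of all measured genes. C1qa (0.45) and Cx3cr1 (0.41) were among the 5, Csf1r differed by 0.02, and Aif1 was under the floor. Mueller glia had a median of -0.04 over 9 genes, with Glul at -0.04, Slc1a3 at 0.04 and Vim at 0.16. Slc1a3 probe sets above the floor ran from 0.02 to 0.44. Vascular endothelium had a median of -0.09 over 9, with Pecam1 at -0.14, Cdh5 at -0.02 and Cldn5 at -0.21. The 5 measured pericyte and smooth muscle genes were all below 0 (median -0.05, Acta2 -0.04, Tagln -0.17). Ciliary and iris epithelium, which makes Aqp1, had a median of -0.11 over 4 of 8 genes, or -0.01 under a 70th-percentile floor, with Zic1 at 0.08 and Wfdc1 at -0.15. Rod photoreceptors had a median of -0.05 over 9, with Gnat1 at -0.08 and Pde6a at -0.14. The part of each in the members' differences was not tested.

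**Figure D4:**
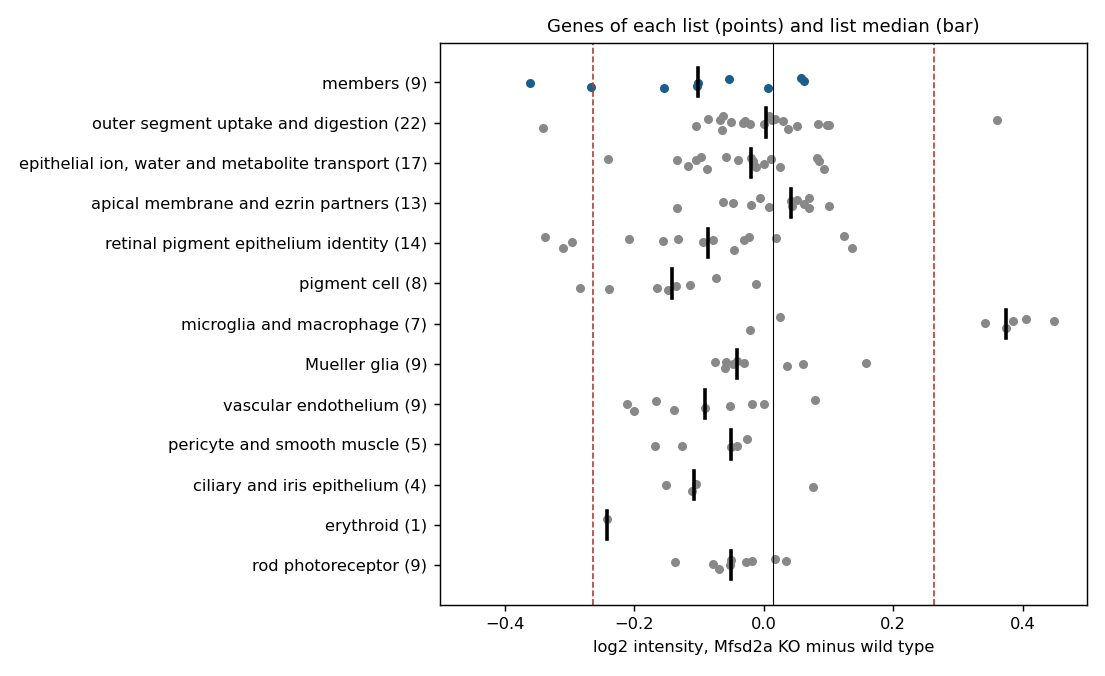
Log2 difference (Mfsd2a KO minus wild type) of each measured gene (points) by list, with the number measured in brackets, the list median as a bar, the median of all 11568 measured genes (0.01) as a thin line and 1.2-fold as dashed lines; vertical scatter within a row has no meaning. By brightest probe set the medians were -0.10 for the members, -0.09 for the pigment epithelium identity genes and 0.37 for microglia and macrophages. Averaged over all probe sets of each gene, the members' median was 0.024 and that of the identity genes -0.08.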

How the data were processed

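RNA of Mfsd2a KO and wild-type eye cups was read on 1 array each. The deposited values are intensities on a linear scale, 1 per probe set (45101 on each array), made with Partek 6.6 and RMA per the submitters' processing notes, which give no order or settings. They ran from 5.07 to 20568 on the array labelled Mfsd2a KO and from 5.15 to 20644 on the wild-type array. RMA equalises arrays, which removes overall differences, and shrinks those of dim probe sets. Scanner files were not used here.

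Intensities were log2 transformed and subtracted (Mfsd2a KO minus wild type). Of the probe sets, 34945 had 1 gene symbol and were no control, and 34754 of these matched RefSeq (GRCm38.p6) by Entrez identifier with 0 symbols changed. Each gene took its brightest probe set, and the floor was the 50th percentile of the 45037 probe sets other than controls. No test was possible with 1 array per genotype, and the number of arrays limits the precision. Sizes of 1.1-fold, 1.2-fold and 1.5-fold were used. The members, the 12 lists and the size were chosen with earlier results of these data known, and 3 of 149 genes stood in more than 1 list. Named were all members, the first 4 and the 4 most different measured genes of the 4 function lists, and the first 2 and the most different of the others; Hba-a1, Slc4a1, Aif1, Lyve1, Otx2, Krt18, Ttr and Gigyf2 were added after their values were seen. Python 3.11.15, numpy 2.4.6, pandas 2.3.3 and statsmodels 0.14.6 (loess) were used. The counting was run on simulated data whose planted differences were all larger than 1.2-fold, so that run does not cover genes near that line.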

Additional observations from a re-analysis of the deposited data

How the results depend on the processing

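No paired analysis was possible because there is only 1 array for a genotype, and so none could be left out. Aqp1 ranged from -0.38 to -0.36 and Kcnj13 from -0.29 to -0.27 over the alternatives, and both were at least 1.2-fold lower under each except at the 1.5-fold size. With 1 probe set each, they cannot change with the choice of probe set. At 1.5-fold, 0 member genes and 0 member probe sets were lower, 0 uptake genes were lower and 0 higher, and 0 identity genes were lower. At 1.1-fold, 2 of the 14 member probe sets above the floor were higher, beside 11.0% of all. At that size 1 of 17 transport genes and 5 of 14 identity genes were lower, beside 6.60% of all measured genes. With no floor, 1 member probe set (of Itgav) and 1 transport gene (Cftr) were at least 1.2-fold higher. The share of all probe sets or genes past that size with no floor was not computed, so these counts have no background. With the mean of probe sets the members' median was 0.024 in place of -0.10 and 0 uptake genes were lower. A higher floor (70th percentile) also left 0 lower uptake genes. The mean over probe sets above the floor, chosen after seeing the data, gave a median of -0.01. It keeps Slc16a8 at -0.10, while the plain mean, which takes in its dim set, gives 0.02. Gas6 was -0.01 by either mean, and Ezr 0.08. The ciliary and iris median was -0.01 at that higher floor, and the erythroid one -0.13 with no floor. Of the values for single genes and marker lists, 104 of 112 moved by less than the technical SD or kept their count within 1.5 times. Much of that count was fixed in advance. Genes with 1 probe set cannot move with the choice of probe set, and a change of sign within the technical SD, as for Itgav, was not counted as a move.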

Other observations

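Other genes of uptake and transport were read under the floor on both arrays, where sizes are least certain. They were picked with their values known. Cd36, a scavenger receptor of outer segment uptake, read 49.5 on the array labelled Mfsd2a KO and 58.0 on the wild-type array (-0.23). Cftr, the chloride channel of cystic fibrosis, read 24.0 and 19.5 (0.30), and Car4, a membrane carbonic anhydrase, 37.5 and 31.5 (0.25). The cadherin Cdh1 read 60.4 on the array labelled Mfsd2a KO and 58.3 on the wild-type array, and Slc16a3, a lactate carrier of glycolytic cells, 59.9 and 60.7. Macrophage markers under the floor were Cd68 at 0.42, Aif1 at 0.38, Adgre1 at 0.24, Mrc1 at 0.18 and Itgam at 0.04.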
